A study of Mus musculus with 2 samples.

Results

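Teneurins, latrophilins and FLRT proteins are cell-surface proteins that neurons use to recognise each other. Their 10 mouse genes (Tenm1, Tenm2, Tenm3, Tenm4, Adgrl1, Adgrl2, Adgrl3, Flrt1, Flrt2 and Flrt3) were chosen by name, with earlier results of these data known. They were looked up in a table that pairs genes with POU3F1 peaks. Of the 10 genes, 9 had a row, with 48 peaks among the 2652 of the list (1.81%), and Adgrl1 had none. The peaks came from CUT&RUN, in which an antibody directs a nuclease to a chromatin protein and the DNA cut around it is sequenced, on retina taken at embryonic day 14 from CD1 mice labelled WT, with no number of embryos stated. The study made 1 library with an antibody against POU3F1, a POU-domain transcription factor, and 1 library with rabbit IgG, which has no target of its own in mouse chromatin, and its title places Pou3f1 in a gene network for retinal axons that project to the opposite side of the brain. The material is labelled as retinal cells with no cell type singled out, so the cell type behind a peak cannot be told apart. The gene table was made with GREAT, which assigns a peak to genes whose regulatory domain contains it, up to 1000 kb from the transcription start site (TSS). Fold is the authors' own value for each peak, the enrichment of its highest point (the summit) against a background whose source is not given.

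Teneurins are very large transmembrane proteins whose extracellular part folds into a barrel-like shell. Latrophilins are adhesion-type G-protein-coupled receptors, and they bind teneurins on the opposing cell. FLRT proteins carry leucine-rich repeats, bind latrophilins as well as the netrin receptors of the Unc5 family, and can attract or repel growing axons. In the mouse visual system, Tenm2 and Tenm3 are known for their part in the mapping of ipsilateral retinal axons. Adgrl1 is best known as the receptor for the toxin of black widow venom.

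The annotated bodies of the genes differ greatly in size, and in the gene table as a whole long genes had an assigned peak more often than short ones. The RefSeq body measured 1297.2 kb for Tenm3, 1230.4 kb for Tenm2, 901.3 kb for Tenm1, 808.7 kb for Adgrl3 and 739.8 kb for Tenm4. It measured 173.5 kb for Adgrl2, 93.2 kb for Flrt2, 78.7 kb for Flrt1, 41.9 kb for Adgrl1 and 13.3 kb for Flrt3. The median of the 10 genes was 456.7 kb, against 17.1 kb over 21900 protein-coding genes. Exons and introns were not separated, so "inside the body" below covers both.

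No peak overlapped any of the 12 promoter windows that RefSeq gives for 9 of the 10 genes, but the promoters of a pair of long non-coding RNA genes upstream of Adgrl2 each overlapped a peak assigned to Adgrl2. Their windows, 250 bases before to 50 after the RefSeq start site in build GRCm38.p6 (the assembly of mm10), are printed 5′ to 3′ because no other promoter window overlapped a peak of these genes. The share of all peaks that overlap a promoter window is not given here. The absence from the 12 windows is therefore not set against the list and cannot be called particular to these genes. The window of Gm30382 (chr3:149445550-149445849, minus strand) lay wholly inside its peak, and capitals mark 50 bases on each side of the summit, which was 183 bases before the start site. The window of Gm30575 (chr3:149088219-149088518, plus strand) had 154 of its 300 bases inside its peak, shown in capitals, and the summit lay beyond the window, 169 bases after the start site.
Gm30382: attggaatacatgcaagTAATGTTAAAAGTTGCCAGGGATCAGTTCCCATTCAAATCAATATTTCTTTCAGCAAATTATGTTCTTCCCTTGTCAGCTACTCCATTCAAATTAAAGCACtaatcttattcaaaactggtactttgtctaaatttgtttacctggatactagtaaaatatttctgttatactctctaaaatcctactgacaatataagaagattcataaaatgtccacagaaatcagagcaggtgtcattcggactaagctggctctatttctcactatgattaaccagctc
Gm30575: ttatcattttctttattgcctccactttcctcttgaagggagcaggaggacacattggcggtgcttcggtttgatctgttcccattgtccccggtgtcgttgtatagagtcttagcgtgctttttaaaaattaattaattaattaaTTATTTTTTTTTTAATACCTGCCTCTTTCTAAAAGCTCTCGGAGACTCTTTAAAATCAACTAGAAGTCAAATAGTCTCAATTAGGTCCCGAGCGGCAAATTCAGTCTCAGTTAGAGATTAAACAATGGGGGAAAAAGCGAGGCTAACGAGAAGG

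The Gm30382 peak (490926 bp upstream of the Adgrl2 TSS) had 5.40-fold enrichment and the Gm30575 peak (133942 bp upstream) had 7.86-fold. Both were shallow, with 10 and 15 fragments at the summit. Sequences of the kind that POU and homeodomain factors are known to bind were searched on both strands of the promoter windows: ATGCAAAT, CATTAAT, CATNNTAAT and TAATTA. The Gm30382 window held none of them. The Gm30575 window held 4 overlapping matches to TAATTA in a repeat of the same letters, 119 to 107 bases before the start site at their first base, of which 3 lay outside the peak and the last ran across its edge. A match describes the letters only, and absence from a window says nothing about binding elsewhere.

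Of the 10 genes, 9 had a window in the RefSeq promoter table, in 12 windows; Flrt1 was not listed. CATNNTAAT was present in 2 of the 12, those of Adgrl2 and Tenm3, against 2.47% of 32851 promoter windows of all genes. TAATTA was present in that of Tenm3 alone, against 5.29% of all windows, and it overlapped the CATNNTAAT match there. ATGCAAAT (1.74% of all windows) and CATTAAT (1.96%) were in none of the 12. The windows of Tenm3 (chr8:48674641-48674940, minus strand) and Adgrl2 (chr3:148954586-148954885, minus strand) are shown with the matches in capitals, since they are the only windows of the 12 with a match. The start site behind the deposited distances equals that of the window in Tenm3 and lies 24 bases from it in Adgrl2. It also equals a window start in Tenm4 and Flrt2 and lies 6 bases from it in Flrt3. In Tenm2, Adgrl3 and Tenm1 it lies 291641, 288432 and 106946 bp from the nearest window start. The windows of those genes therefore do not cover the site from which their distances are measured. No peak of the list lay in the window of Tenm3 or Adgrl2.
Tenm3: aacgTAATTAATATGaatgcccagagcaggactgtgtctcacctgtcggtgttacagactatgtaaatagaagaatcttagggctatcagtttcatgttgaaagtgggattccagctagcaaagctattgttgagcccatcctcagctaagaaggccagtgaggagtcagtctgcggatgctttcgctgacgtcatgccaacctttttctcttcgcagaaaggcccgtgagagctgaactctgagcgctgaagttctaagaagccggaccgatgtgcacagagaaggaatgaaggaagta
Adgrl2: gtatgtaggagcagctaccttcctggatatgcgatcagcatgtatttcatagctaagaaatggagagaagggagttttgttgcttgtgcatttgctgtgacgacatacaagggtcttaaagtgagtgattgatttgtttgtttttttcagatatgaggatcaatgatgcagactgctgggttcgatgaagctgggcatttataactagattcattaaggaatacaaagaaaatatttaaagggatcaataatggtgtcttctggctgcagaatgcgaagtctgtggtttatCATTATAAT

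The 9 genes with a peak were 90.0% of the 10 (95% exact interval 55.5 to 99.7%), against 10.2% of 21900 protein-coding genes. Set against genes of like body length, 6 of the 10 genes had a body of at least 100 kb. All 6 had a peak, against 32.2% of 2429 protein-coding genes of that size. Among genes of 300 to 1000 kb, Tenm1, Tenm4 and Adgrl3 had peaks, against 51.4% of 498 genes, and at 1000 kb and over Tenm2 and Tenm3 had peaks, against 57.6% of 59 genes. Among shorter genes, Adgrl2 (100 to 300 kb, 26.3% of all genes), Flrt1 and Flrt2 (30 to 100 kb, 11.6%) and Flrt3 (10 to 30 kb, 6.80%) had peaks, and Adgrl1 (30 to 100 kb) had none. No test was made of these shares, and the interval covers counting error only. It does not cover the choice of the 10 genes, which was made with earlier results of these data known. GREAT assigns peaks by regulatory domain, whose size was not measured here, and 24 of the 48 peaks lay outside the body of their gene. Genes of like body length are therefore not matched for their chance of an assigned peak. The plot of shares by gene length sets the family beside all genes of each class.

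**Figure D1:**
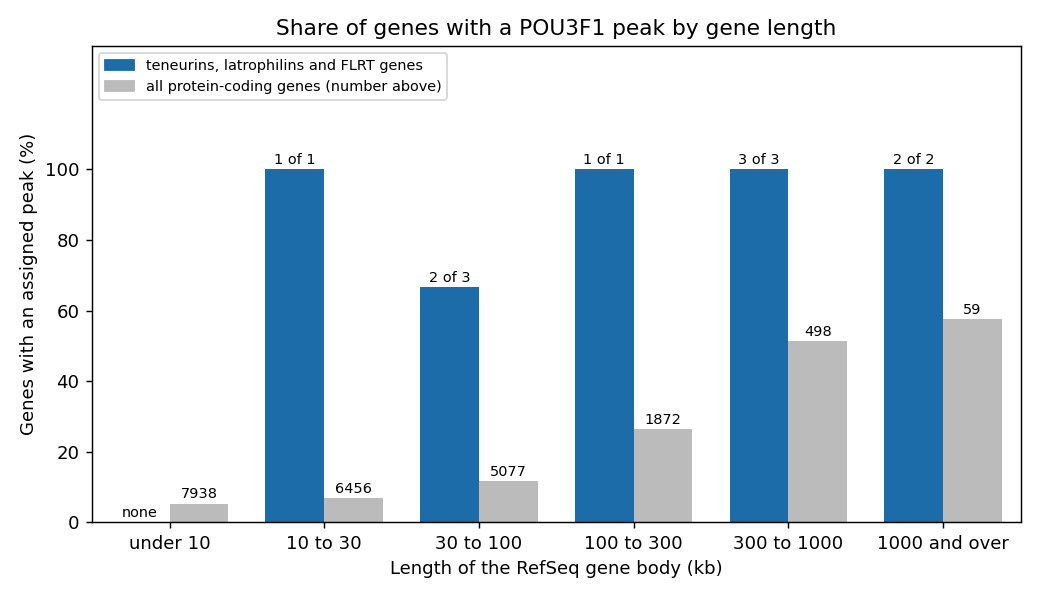
Share of genes with an assigned POU3F1 peak (percent) by length of the RefSeq gene body (kb), for the 10 teneurin, latrophilin and FLRT genes (blue, with counts) and for all protein-coding genes (grey, with the number of genes above each bar). The grey share climbs to 57.6% in the longest class, and Adgrl1, of 30 to 100 kb, is the only gene of the 10 without a peak.

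The number of peaks per gene was uneven. Adgrl2 had 13, Tenm3 had 9, Flrt3 had 7, Adgrl3 had 5, Tenm1 had 4, Tenm2 and Tenm4 had 3 each, and Flrt1 and Flrt2 had 2 each. Adgrl2 was among 10 genes of the table with at least 13 peaks, and Tenm3 among 33 with at least 9, while 1443 of its 2324 genes had 1 peak. At least 3 peaks were assigned to 7 of the 10 genes, against 1.93% of protein-coding genes. The same held for all 6 of those over 100 kb, against 8.56% of protein-coding genes of that size. The size of the regulatory domain was not matched here either. The 4 teneurins held 19 of the 48 peaks, the latrophilins 18 and the FLRT genes 11.

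All 48 distances could be placed on peaks of the list, which shows where each peak lies relative to the annotated gene. By the signed distance, 30 of the 48 pairs were upstream of the TSS (62.5%, 95% exact interval 47.4 to 76.0%). The share over all 4427 pairs was 42.7%. Of the 30, 9 were of Adgrl2, 8 of Tenm3 and 6 of Flrt3. Pairs of 1 gene share 1 TSS and are not independent, which the interval does not take into account. However, 9 of these 30 peaks lay inside the annotated body of their own gene (7 in Tenm3 and 1 each in Adgrl3 and Flrt1), where the TSS behind the distances is an internal one. That TSS lay 848.1 kb inside the annotated body in Tenm3, 290.9 kb in Adgrl3, 261.3 kb in Tenm1 and 60.5 kb in Flrt1. Placed on the RefSeq bodies, 24 peaks (50.0%, 35.2 to 64.8%) were inside the gene they were assigned to, 21 were upstream of its 5′ end and 3 lay beyond its 3′ end. No matching shares over all pairs are given here for these positions. Counting the body of any protein-coding gene, 31 of the 48 peaks (64.6%, 49.5 to 77.8%) lay inside one, against 1208 of 2594 peaks of the autosomes and chromosome X (46.6%), and this difference was not tested.

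**Figure D2:**
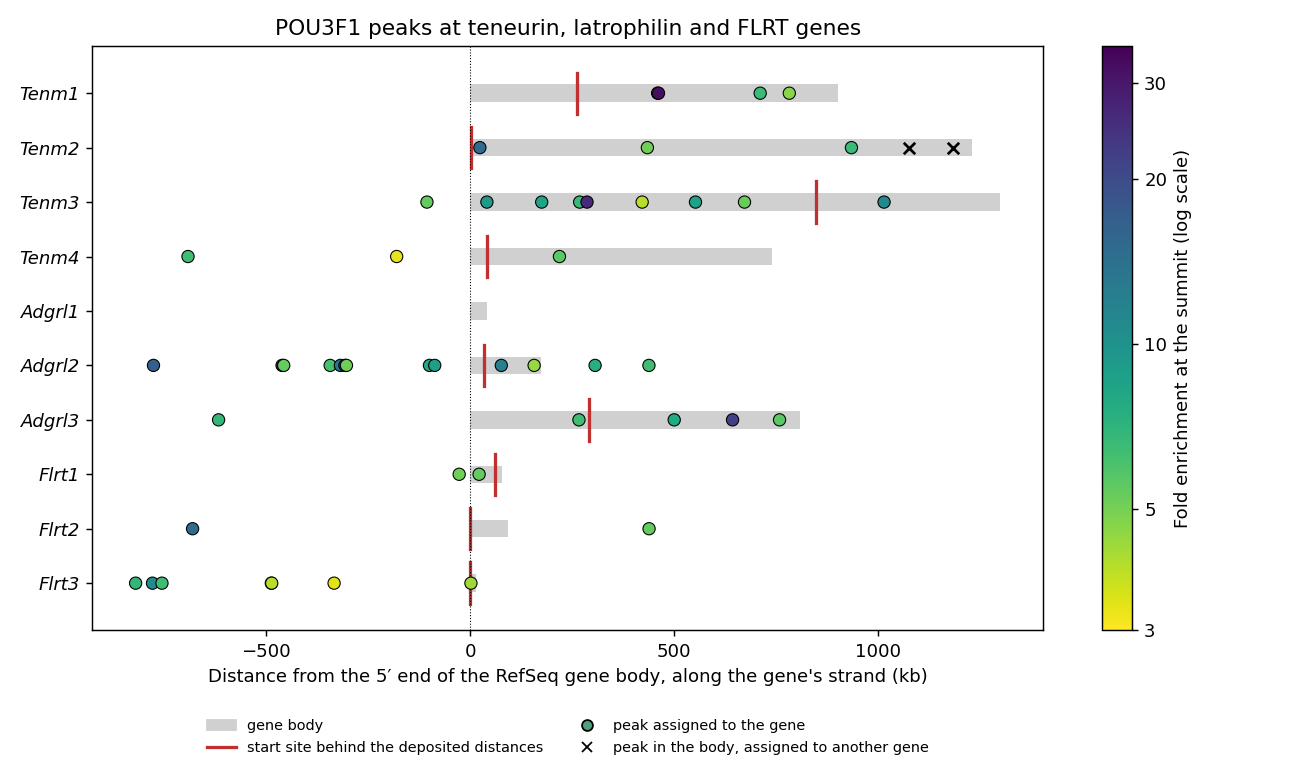
Position of each peak (points, coloured by fold on a log scale) along the 10 genes, in kb from the 5′ end of the RefSeq gene body, with bodies as grey bars and the start site behind the deposited distances as a red line. The red line lies 848.1 kb inside the body of Tenm3, so that 7 of its 8 upstream peaks fall within the grey bar, while most peaks of Adgrl2 and Flrt3 lie far outside theirs. Crosses mark a pair of peaks in the body of Tenm2 that are assigned to another gene.

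Teneurin peaks were mainly inside the genes, with 16 of 19 in the annotated body. The latrophilin and FLRT genes differed from this in their counts, with 6 of 18 and 2 of 11 inside, and total body length differed too, at 4.17 Mb for the teneurins, 1.02 Mb for the latrophilins and 0.19 Mb for the FLRT genes. Per length, the bodies of the 10 genes held 26 peaks in 5.38 Mb, which is 4.83 per Mb (95% exact Poisson interval 3.16 to 7.08), whichever gene the peaks were assigned to. Bodies of protein-coding genes of at least 100 kb held 1.56 per Mb (1.46 to 1.66), and all protein-coding bodies together 1.17 per Mb (1.11 to 1.24). The intervals cover counting error only, and the difference was not tested. Among single genes, counting only peaks assigned to the gene, the intervals were wide. Rates were 6.17 per Mb in Tenm3 (2.66 to 12.2), 4.95 in Adgrl3 (1.35 to 12.7) and 4.44 in Tenm1 (1.21 to 11.4). They were lower in Tenm2, at 2.44 (0.503 to 7.13), and in Tenm4, at 1.35 (0.0342 to 7.53). In Adgrl2 the rate was 11.5 (1.4 to 41.6), from 2 peaks. The 1.56 per Mb takes any peak in a body, so these single-gene rates are not on the same count and are not set against it. The body of Tenm2 holds a further pair of peaks assigned to another gene, which its rate leaves out.

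Tenm3 had its strongest peak at chromosome 8: 49235934 to 49237011, with 26.1-fold enrichment and a summit pileup of 83 fragments. The deposited distance puts it 561782 bp upstream of the TSS, and the RefSeq annotation puts it inside the gene, 286.4 kb from the 5′ end and 22.1% of the way along the body. A weaker peak lay 17.0 kb away at chromosome 8: 49254035 to 49254728 (6.68-fold, 40 fragments), where the background was also higher, at 5.138 fragments against 2.216. The peak nearest to the deposited TSS, 165889 bp downstream at chromosome 8: 48508168 to 48509434, had 11.0-fold enrichment and was also assigned to Dctd, which encodes a nucleotide-metabolism enzyme. Nearest to the annotated 5′ end was a peak 41.2 kb inside the gene (9.33-fold, 18 fragments). The remaining 5 peaks had 3.92-fold to 8.51-fold enrichment, and of the 9 peaks of Tenm3 the one lying 105.6 kb beyond the 5′ end (5.40-fold) was the only one outside the body.

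Tenm1, on chromosome X, had the highest fold of the family. The peak at chromosome X: 42967429 to 42967987 had 32.4-fold enrichment (65 fragments over a background of 1.036) and ranked 43 among the 2652 peaks by fold. It lay inside the gene, 461.5 kb from the annotated 5′ end and 200130 bp downstream of the deposited TSS. A weaker peak (5.89-fold, 11 fragments), 197985 bp downstream and the nearest to that TSS, was 1.6 kb away from it. The other peaks, 449294 and 520579 bp downstream, had 6.55-fold and 4.65-fold enrichment. These 4 peaks were 9.30% of the 43 on chromosome X, all lay in the Tenm1 body, and all were also assigned to Sh2d1a, an immune adaptor gene. The peaks 449294 and 520579 bp downstream were nearer to the Sh2d1a TSS, at 216047 and 144762 bp from it. The sex of the embryos is not given in the sources used here.

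Tenm2 had its strongest peak close to the 5′ end of its annotated body. At chromosome 11: 37212482 to 37213660, 22811 bp downstream of the TSS, enrichment was 15.1-fold with 37 fragments. The other assigned peaks, 433178 and 932933 bp downstream, had 5.18-fold and 6.64-fold enrichment and were shared with Wwc1, which encodes a scaffold protein of the Hippo pathway. Near the 3′ end of Tenm2, 87.4% and 96.1% along the body, lay a further pair of peaks that the table assigned to Wwc1 and not to Tenm2. They had 3.92-fold and 3.38-fold enrichment, the second with 58 fragments over a background of 16.442.

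Tenm4, known in mice for its role in myelination, had no peak of 10-fold, unlike the other teneurins. Its strongest, at chromosome 7: 95480187 to 95480567, had 6.39-fold enrichment (12 fragments) and lay 731294 bp upstream in no annotated gene. A peak inside the body, at chromosome 7: 96389953 to 96390395 and the nearest to the TSS at 178503 bp downstream, had 5.60-fold enrichment (19 fragments). It was also assigned to Nars2, a mitochondrial asparaginyl-tRNA synthetase gene. The third, 220197 bp upstream, had the lowest fold of all 48 peaks, 3.30, with 26 fragments over a background of 7.193.

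Adgrl2 had peaks on both sides and more at high fold than any other gene of the family. Of its 13 peaks, 5 reached 10-fold, against 12 of the 48 peaks of the family. The highest fold was at chromosome 3: 149449464 to 149449809 (28.6-fold, 101 fragments), 494978 bp upstream. The deepest peak was at chromosome 3: 149295209 to 149296124, 341008 bp upstream, with 22.0-fold enrichment and 247 fragments over a background of 10.276. It ranked 40 by pileup among the 2609 peaks with a recovered pileup and 95 by fold. Further upstream peaks reached 16.6-fold at chromosome 3: 149764476 to 149764724 (809942 bp upstream) and 13.3-fold at chromosome 3: 149306536 to 149306986 (352103 bp upstream). Inside the gene, the peak nearest to the TSS, at chromosome 3: 148912458 to 148912738 and 42060 bp downstream, had 12.0-fold enrichment with 42 fragments.

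Between 300 and 500 kb upstream of Adgrl2, 6 peaks lay within 158.0 kb. They included the deepest peak and the one of highest fold. All 6 were in bodies of long non-coding RNA genes, 5 of them in Gm30382 (chromosome 3: 149181187 to 149445599) and 2 in A630039O03Rik (chromosome 3: 149429258 to 149498030), which overlap in 1 peak. With the Gm30575 peak, 7 of the 9 upstream peaks of Adgrl2 lay in such genes. Over the whole family, 9 of the 48 peaks (18.8%, 95% exact interval 8.95 to 32.6%) overlapped the body of a long non-coding RNA gene, the other two being peaks of Tenm3, against 13.1% of 2594 peaks of the autosomes and chromosome X. The share of the family is thus near that of the list. Among peaks that overlapped no protein-coding body it was 7 of 17 (41.2%, 18.4 to 67.1%), all of them peaks of Adgrl2, against 19.7% of 1326, and neighbouring peaks in 1 such gene are not independent. No other gene that could be placed shared any of the 13 peaks. The table holds assignments and no measure of contact, so which gene these peaks act on, if any, was not tested.

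Adgrl3, a latrophilin gene linked in humans to attention-deficit disorder, had 4 of its 5 peaks inside its body. The strongest was at chromosome 5: 81661736 to 81662280, 351983 bp downstream of the deposited TSS, with 21.7-fold enrichment and 121 fragments over a background of 4.624. The peak nearest to that TSS, at chromosome 5: 81285503 to 81285984, had 6.39-fold enrichment (12 fragments). It is listed 24282 bp upstream, yet it lay inside the body, 266.7 kb from the annotated 5′ end. The other peaks had 5.63-fold to 7.86-fold enrichment and 12 to 15 fragments. Adgrl1 had no assigned peak, and the nearest peak of the list was 675.1 kb upstream of its 5′ end (4.90-fold) and assigned to Tbc1d9 and Ucp1.

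The FLRT genes are short, and 9 of their 11 peaks lay outside them. Flrt3 had the only peak within 5 kb of a TSS among all 10 genes, at chromosome 2: 140669109 to 140669612, 2109 bp downstream. Its fold was 4.27, with 34 fragments over a background of 7.193, and it lay 1815 bp from the Flrt3 promoter window. This peak was also assigned to Macrod2, the gene of a macrodomain protein in whose body Flrt3 lies. The strongest Flrt3 peak, at chromosome 2: 141449150 to 141449639 and 777925 bp upstream, had 10.7-fold enrichment (48 fragments). All 7 Flrt3 peaks lay in the 1997.7 kb body of Macrod2, although 6 of them were assigned to Flrt3 and to no other gene that could be placed. Among these, a pair 0.5 kb apart had 3.90-fold enrichment with 45 fragments over a background of 10.79, and 4.72-fold with 10 fragments over 1.329.

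Flrt1 lay in a comparable position, inside the body of Macrod1, and both of its peaks were in that body as well. The peak nearest to the TSS, at chromosome 19: 7143927 to 7144298 and 38383 bp upstream, was also its strongest, with 5.40-fold enrichment (10 fragments). The second, 87166 bp upstream, had 5.12-fold (12 fragments). Both were also assigned to Otub1, a deubiquitinase gene, and the second was nearer to the Otub1 TSS (13421 bp) than to that of Flrt1, while the first was farther from it (62204 bp). Flrt2, known for repelling cortical neurons that carry Unc5d, had its stronger peak at chromosome 12: 95012192 to 95012476, 679892 bp upstream, with 14.7-fold enrichment (29 fragments). The other Flrt2 peak, 438136 bp downstream, had 5.40-fold (10 fragments). Neither lay in an annotated gene.

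Distances were long. The median was 390.4 kb for the 48 pairs, against 160.8 kb for all 4427 pairs. Within 5 kb of the TSS lay 1 pair (2.08%, 95% exact interval 0.0527 to 11.1%), against 8.92% of all pairs, and at 5 to 50 kb lay 4 (8.33%), against 14.9%. At 50 to 500 kb lay 29 (60.4%), against 60.7%, and over 500 kb lay 14 (29.2%, 17.0 to 44.1%), against 15.6%. A peak lay no farther than 50 kb from the TSS in 5 of the 10 genes (Tenm2, Adgrl2, Adgrl3, Flrt1 and Flrt3), against 3.67% of protein-coding genes. Of the 48 peaks, 11 (22.9%) were assigned to a second gene that could be placed, against 69.6% of 2493 placed peaks in all. No test was made of these differences. Because GREAT assigns by regulatory domain, distances and sharing also depend on the spacing of neighbouring genes, which was not measured here. These values therefore cannot be read as a trait of POU3F1 binding at these genes.

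Enrichment of the 48 peaks covered the same range as most of the list. The median was 6.47-fold (quartiles 5.38 and 9.66), against 6.39-fold (4.91 and 8.84) over 2594 peaks of the autosomes and chromosome X. At least 10-fold was reached by 12 peaks (25.0%, 95% exact interval 13.6 to 39.6%), against 18.9%, and at least 20-fold by 5 (10.4%, 3.47 to 22.7%), against 4.36%. Both shares of the whole list lay inside the intervals. By subfamily the medians were 6.55-fold for the teneurins, 7.70-fold for the latrophilins and 5.40-fold for the FLRT genes, with ranges that overlapped widely.

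**Figure D3:**
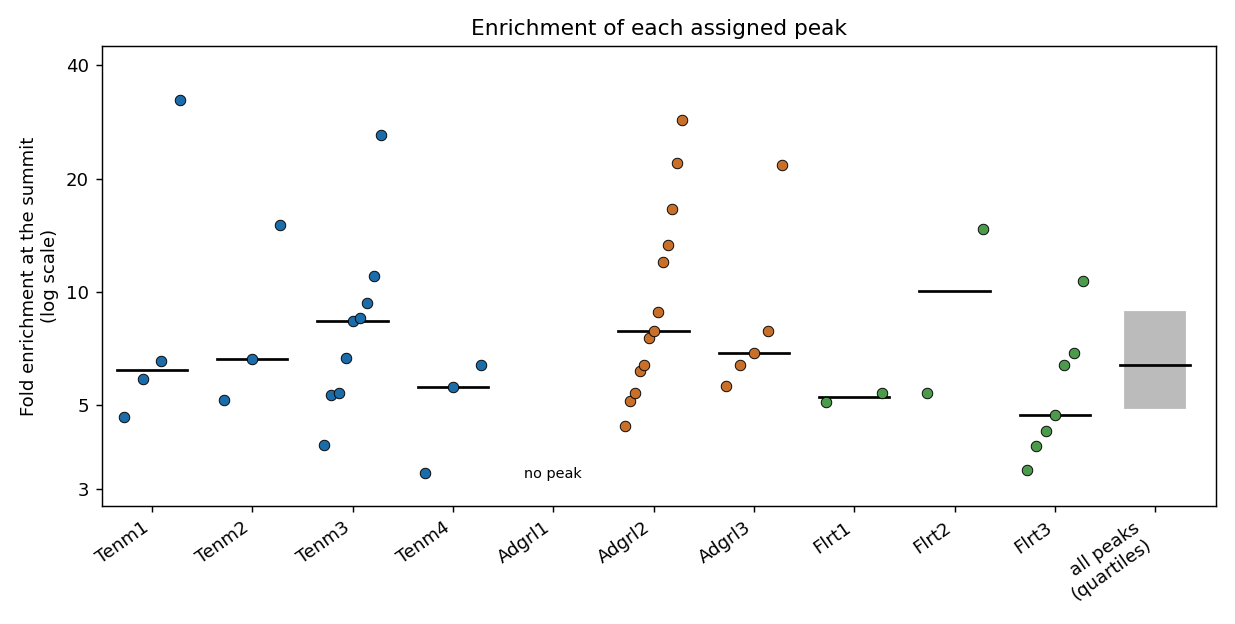
Fold enrichment at the summit (log axis) of each peak assigned to the teneurins (blue), latrophilins (orange) and FLRT genes (green), with the median of each gene as a black line, and the median and quartiles of all peaks of the autosomes and chromosome X at the right. Tenm1, Tenm2, Adgrl3, Flrt2 and Flrt3 each have a single peak above 10-fold, Tenm3 has a pair, and Adgrl2 has 5.

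The depth behind the peaks was modest. Summit pileup, the number of fragments over the summit, could be recovered for all 48 peaks from the deposited fold and p-value. Its median was 18 (quartiles 12 and 30.2), against 19 (13 and 32.5) in 2575 peaks of the autosomes and X, and 28 of the 48 peaks (58.3%) had under 20 fragments, against 52.0%. Of the 48 peaks, 10 had exactly the same fold and p-value as another, in 3 sets, since they had the same pileup over the same background. One such set joined peaks of Tenm3, Adgrl2, Flrt1 and Flrt2 at 5.40-fold and 10 fragments. Differences among peaks of this depth therefore amount to a few fragments. With 1 POU3F1 library there was no replicate to set them against.

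The order of the strongest peaks depended on the measure. By fold, Tenm1 (32.4) came before Adgrl2 (28.6), Tenm3 (26.1), the second Adgrl2 peak (22.0) and Adgrl3 (21.7). By pileup, the order among these 5 was the second Adgrl2 peak (247 fragments), Adgrl3 (121), the Adgrl2 peak of highest fold (101), Tenm3 (83) and Tenm1 (65). The background was 10.276 fragments at the deepest Adgrl2 peak and 1.036 at that of Tenm1. That lowest value was shared by 18 of the 48 peaks (37.5%), against 30.4% of 2575 peaks of the autosomes and X. A background of at least 5 fragments was found at 5 peaks, against 15.3% of the list.

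**Figure D4:**
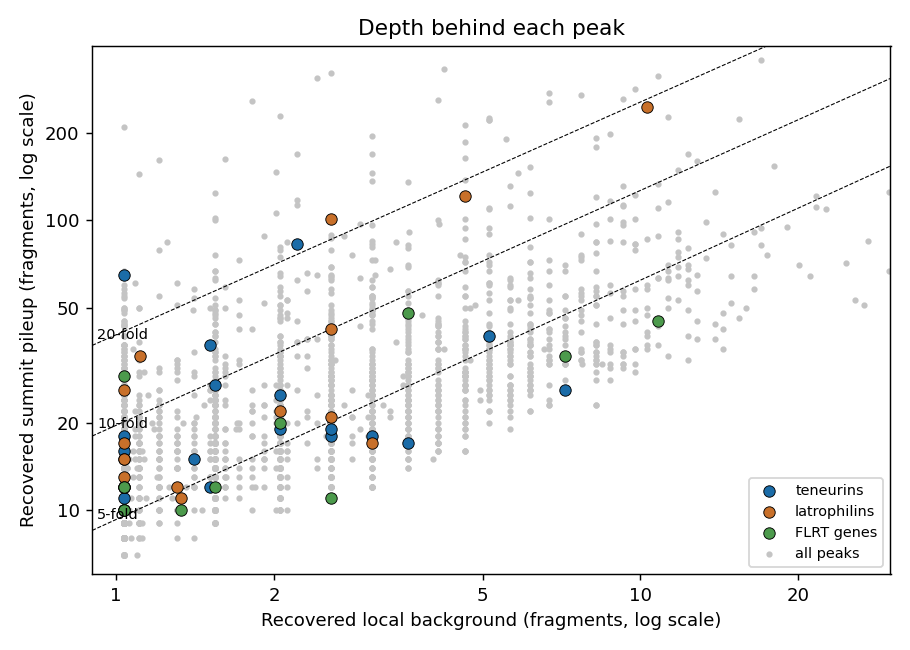
Recovered summit pileup against recovered background (fragments, log axes) for the peaks of teneurins (blue), latrophilins (orange) and FLRT genes (green) over all peaks of the autosomes and chromosome X (grey; 25 peaks lie outside the axes), with dashed lines of equal fold. The deepest peak, at 247 fragments, belongs to Adgrl2 and lies at a background of 10.276, while the Tenm1 peak of highest fold lies at 65 fragments and the lowest background.

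Genes of known binding partners were also looked up. The list, drawn up from general knowledge with earlier results of these data known, as reported held 16 genes of Unc5 receptors, neurexins, olfactomedins, Shank scaffolds, Robo1, Fgfr1, Dag1 and Cntn6. Of these, 7 had a peak (43.8%), against 10.2% of protein-coding genes, and of the 8 with a body of at least 100 kb, 5 had one, against 32.2% of protein-coding genes of that size. Robo1, a Slit receptor that acts with FLRT3 in axon guidance, had 7 peaks, the strongest with 36.0-fold enrichment and 146 fragments. Unc5c had 7 peaks of at most 6.39-fold, Cntn6, a contactin gene, had 3 of at most 7.35-fold, and Unc5d had 2 of at most 4.76-fold. Olfm1 (20.1-fold, 87658 bp upstream) and Olfm2 (15.7-fold, 24142 bp downstream), which encode secreted olfactomedins, had 1 peak each, and Nrxn3, a neurexin gene, had 1 (3.93-fold). Unc5a, Unc5b, Fgfr1, Dag1, Nrxn2, Olfm3, Shank1, Shank2 and Shank3 had none.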

How the data were processed

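The study profiled POU3F1 (1 library) and rabbit IgG (1 library) by CUT&RUN in retina at embryonic day 14. Per the submitters' processing notes, Bowtie2, MACS2, deepTools and build mm10 were used, without versions. The authors' deposited peak list gives each interval a fold enrichment (a ratio), the −log10 p-value and q-value, and a score, deposited by the authors as the whole-number part of the −log10 q-value multiplied by 10. The authors' gene table, per the file headers, came from GREAT 4.0.4 (basal domain 5000 bp upstream and 1000 bp downstream, extension to 1000000 bp). It held 2324 rows and 4427 pairs. The source of the background is not given in the sources used here, and no signal of the IgG library was analysed here.

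Each gene's distances were matched to peak midpoints by searching for 1 start site and strand that fit them all (tolerance 1 bp), which placed 4248 pairs (96.0%). Genes that were not matched (53), ambiguous (34) or not placed (15) cannot appear as sharing a peak. Pileup P and background L were recovered from fold = (P + 1) / (L + 1) and the Poisson p-value (tolerance 0.001 on the −log10 scale) in 2609 peaks (98.4%). Library depth is unknown. Both steps were tried on simulated data, with an outcome that is not given here. Placement was tried on 1 chromosome and only for genes with more than 1 peak, while 1443 of the 2324 genes had 1 peak. Simulated backgrounds did not reach the highest values named above, such as 16.442 fragments. Gene bodies and promoter windows are RefSeq, GRCm38.p6. Sequence under peaks outside promoter windows was not analysed here, so the motifs were searched in promoter windows alone.

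With 1 library per antibody no test was made. Peaks and genes are not replicates. Shares carry exact binomial (Clopper-Pearson) and rates exact Poisson 95% intervals. Those over peaks treat the peaks as independent, which peaks of 1 gene are not. Named were all 10 genes, for each its strongest peak, its peak nearest the TSS and every peak of at least 10-fold, genes sharing those peaks, and partners and relatives with a peak. The remaining named peaks were chosen after their values were seen, as were distances from the 5′ end of RefSeq bodies. The 10 genes and the partner list were chosen with earlier results of these data known. A further gene of the partner list is not reported here and enters none of its counts. Python 3.11.15, scipy 1.17.1, numpy 2.4.6 and pandas 2.3.3 were used.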

Additional observations from a re-analysis of the deposited data

How the results depend on the processing

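No paired analysis was possible because each antibody had 1 library and no test was made. The count of 9 genes with a peak stayed at 9 with q-values under 0.01 or 0.001, within 500 kb, with the nearest TSS only and, an alternative added after seeing the data, with a background under 5 fragments. It was 8 with a summit pileup of at least 20 fragments, where Flrt1 was lost. Within 50 kb of the TSS it was 5, with 5 peaks in place of 48. With a pileup of at least 20, 20 peaks were left and the median fold was 11.5, in place of 6.47, since shallow peaks of low fold are then left out. The 48 peaks were 47 with a q-value under 0.001 (Flrt3 lost a peak with q = 0.0355), 34 within 500 kb, 44 with the nearest TSS only and 44 with peaks under 5 kb apart merged. Measured from the 5′ end of the RefSeq body, which was also added after seeing the data, 21 peaks were upstream in place of 30, the median distance was 436.2 kb in place of 390.4 kb, and 4 genes in place of 5 had a peak within 50 kb. Those 4 were Tenm2, Tenm3, Flrt1 and Flrt3, so Tenm3 entered while Adgrl2 and Adgrl3 dropped out. Single peaks of 10 to 20 fragments rest on few reads, and intervals cover counting error only.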

Other observations

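Adhesion receptors related to the latrophilins also had peaks, in 4 of 4 genes examined, against 10.2% of protein-coding genes. Of the 4, Adgrl4 and Adgrb3 have a body of at least 100 kb, a size at which 32.2% of protein-coding genes had a peak. Adgrl4, which encodes an adhesion receptor of blood vessels and lies on chromosome 3 as Adgrl2 does, had 3 peaks, all upstream of its TSS. The strongest, at chromosome 3: 150503595 to 150504306, had 30.3-fold enrichment with 76 fragments and lay 933937 bp upstream. Adgrb2, a brain angiogenesis inhibitor gene, had a peak of 22.8-fold (54 fragments, 31780 bp upstream) and 1 of 6.88-fold. Adgrb1 (6.61-fold, 19653 bp downstream) and Adgrb3 (5.41-fold, 25008 bp upstream) had 1 peak each, the last with 60 fragments over a background of 10.276. No test was made of this count.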
